A study of Mus musculus with 20 samples.

Results

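The expression of 6 genes was followed across mouse colon organoids without active BrafV600E, with it, and with it after selection for growth without niche factors: Eml1, Tesc, Pcyt1b, Adarb1, Aif1l and Celf2. They are 6 of the 21424 genes measured, and they were picked because their signal was higher in selected organoids, or in all BrafV600E organoids, than in controls. Their differences between organoid types are therefore given as a description, with no test. All 6 had a probe that passed the filter on dim signal. The probes used for Eml1, Pcyt1b, Aif1l and Adarb1 passed only through the BRAF or selected arrays. Passing the filter therefore says nothing about these probes. Of 6 EV arrays, the probes of the first 3 of these genes were detected on 0 and that of Adarb1 on 2. A second Eml1 probe, not the one used, was well above background on all 18 arrays. The rule had no numerical threshold, so no genes lie just inside or outside one.

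The organoids, epithelial cultures grown from crypts in Matrigel, came from the proximal colon of male mice of about 40 days that were heterozygous for a Cre-activable BrafV600E allele (Braf+/LSL), except for the cultures labelled wild type. EV organoids carried the allele and received the empty lentiviral backbone. BRAF organoids received Cre through the lentivirus and were taken 5 months after induction. Selected organoids were induced ones that had been selected for growth in base medium, a medium without the factors of the stem-cell niche. Arrays were run for each line in base medium and in the medium labelled ENSW, both after 48 h. The protocol in the labels supplies EGF and medium conditioned with Noggin, R-spondin and Wnt3a during culture. With 3 lines of each of these types there were 6 groups of 3 arrays, and wild-type organoids had 1 array per medium. The labels do not say whether a line is 1 mouse or whether its cells are clonal, so each p-value measures the spread between these lines.

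BrafV600E is a constantly active kinase that drives the MAPK pathway and is found in colon tumours of the serrated type. Normal colon epithelium depends on niche factors such as Wnt and R-spondin to keep its crypt cells dividing, and organoids that do without them are known from tumours. The 6 genes belong to different processes. Eml1 encodes a microtubule-binding protein of the EML family. Tesc encodes tescalcin, a calcium-binding protein that interacts with sodium-proton exchangers. Pcyt1b encodes the beta form of the enzyme that makes CDP-choline, the regulated step of phosphatidylcholine synthesis. Adarb1 encodes ADAR2, an enzyme that edits adenosine to inosine in double-stranded RNA. Aif1l encodes an actin-binding relative of the macrophage protein AIF1. Celf2 encodes an RNA-binding protein that regulates alternative splicing and RNA stability.

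The RefSeq promoters of the 6 genes (GRCm38.p6, 250 bases before to 50 after the start) are shown as a description, and they differed in CpG number. The pattern that the genes share across organoid types is the one they were picked for. All 6 were found in the table, with 15 entries. Tesc has 1 entry, on the plus strand (chr5:118027493-118027792), with 36 CpG dinucleotides. Adarb1 has 1 entry, on the minus strand (chr10:77418224-77418523), with 46 CpG. Over 32851 promoters of this length the median was 7 CpG, and the middle 50% of them lay between 3 and 20. The CpG of both are in capitals:
Tesc promoter: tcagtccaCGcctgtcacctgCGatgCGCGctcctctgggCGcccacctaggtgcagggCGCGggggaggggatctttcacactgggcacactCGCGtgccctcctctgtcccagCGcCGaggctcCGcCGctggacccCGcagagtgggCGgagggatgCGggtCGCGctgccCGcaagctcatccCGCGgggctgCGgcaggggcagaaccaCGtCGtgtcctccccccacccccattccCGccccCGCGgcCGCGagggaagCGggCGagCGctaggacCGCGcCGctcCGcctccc
Adarb1 promoter: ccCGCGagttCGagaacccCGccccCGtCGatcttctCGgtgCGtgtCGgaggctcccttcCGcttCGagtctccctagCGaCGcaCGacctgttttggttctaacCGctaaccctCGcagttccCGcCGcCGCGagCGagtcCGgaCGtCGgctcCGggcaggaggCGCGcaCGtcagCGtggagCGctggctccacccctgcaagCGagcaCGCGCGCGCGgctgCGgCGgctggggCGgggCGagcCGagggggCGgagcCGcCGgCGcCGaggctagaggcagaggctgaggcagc
The first promoter of Pcyt1b, on the plus strand (chrX:93654613-93654912), holds 2 CpG, shown in capitals:
Pcyt1b promoter: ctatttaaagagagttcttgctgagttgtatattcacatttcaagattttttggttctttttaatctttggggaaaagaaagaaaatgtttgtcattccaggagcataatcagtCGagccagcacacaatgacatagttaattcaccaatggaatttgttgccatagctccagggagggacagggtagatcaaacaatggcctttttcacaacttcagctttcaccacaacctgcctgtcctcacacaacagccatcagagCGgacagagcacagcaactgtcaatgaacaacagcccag
The first of 5 Eml1 promoters, on the plus strand (chr12:108370903-108371202), holds 6 CpG and 1 match to the AP-1 motif TGANTCA, the recognition sequence of FOS and JUN factors, which act downstream of MAPK. The match is in capitals and starts 205 bases before the start of the gene:
Eml1 promoter: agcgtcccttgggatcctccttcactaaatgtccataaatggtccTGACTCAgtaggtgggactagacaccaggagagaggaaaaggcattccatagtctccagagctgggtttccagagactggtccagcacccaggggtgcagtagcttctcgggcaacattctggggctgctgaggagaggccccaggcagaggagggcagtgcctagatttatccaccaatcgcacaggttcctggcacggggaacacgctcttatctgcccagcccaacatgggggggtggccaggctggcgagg
The single Aif1l promoter holds 29 CpG, and the 5 Celf2 promoters hold 4, 6, 6, 48 and 8. On either strand TGANTCA was present in 2 of the 15 entries (Eml1 and Celf2, 1 each) and in 7.81% of all promoters. The ETS motif CCGGAAGT was in 0 of 15 entries and in 3.89% of all promoters, and the TCF motif ATCAAAG was in 1 entry (Aif1l) and in 3.73%. A match describes these letters alone.

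Levels are given as log2 of the processed signal minus the array's 75th percentile. They compare arrays for 1 probe and not 1 gene with another. Where no array of a group detected a probe well above background, the difference is a bound, written "at least". The bound compares the brighter group's mean with the mean detection limit of the dim arrays (their lowest detected signal, or the dim probe's own signal if higher). For the 6 genes no bound is given where only 1 of 3 arrays of the brighter group was well above background.

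**Figure D1:**
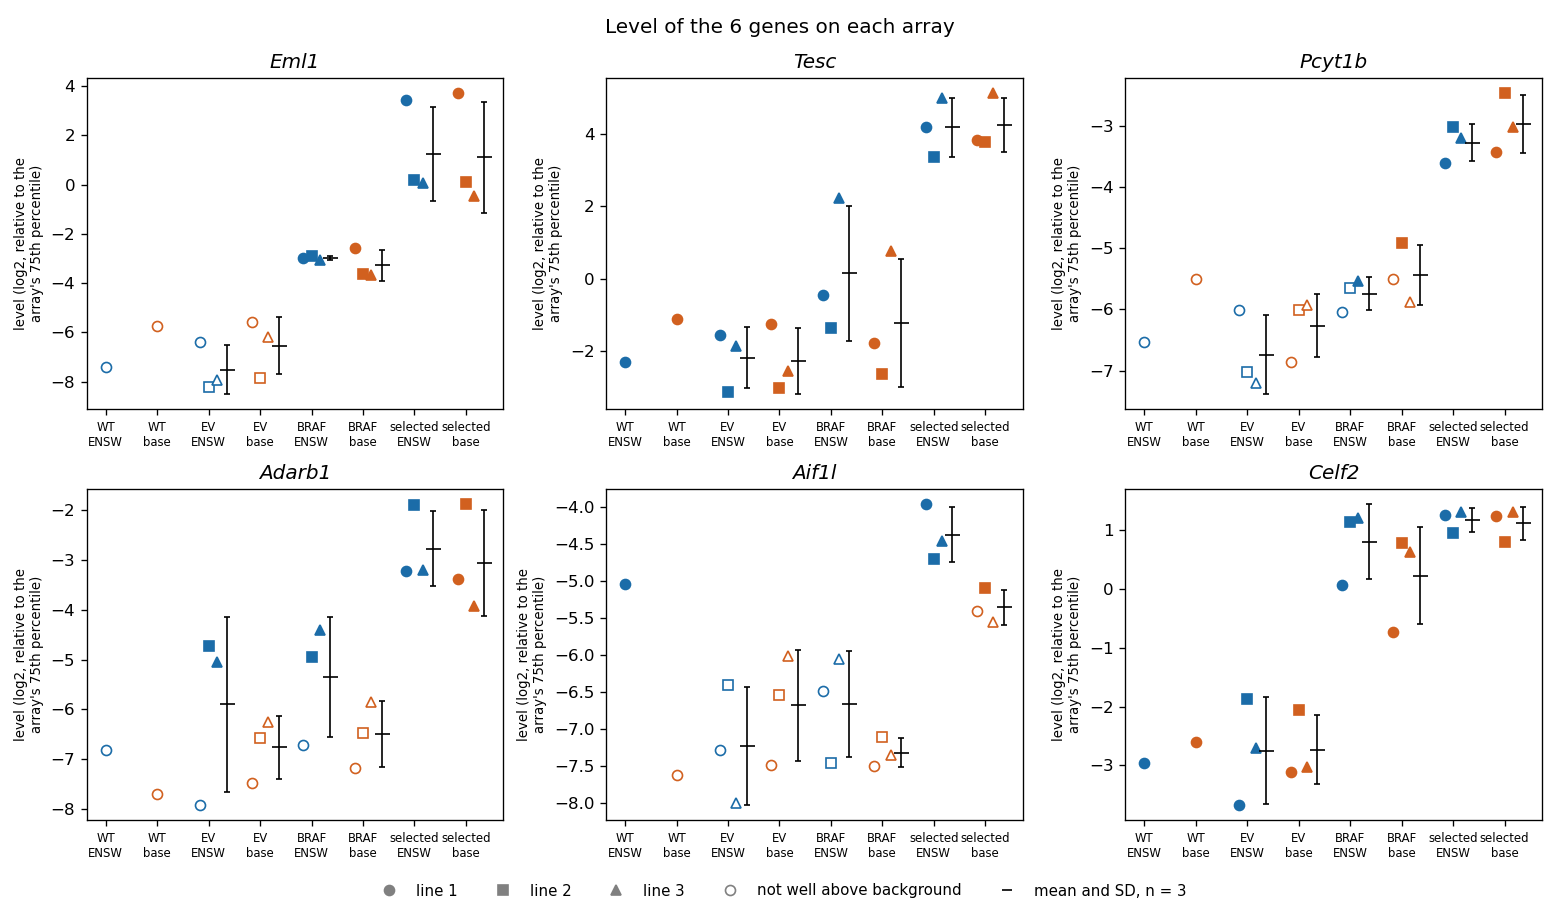
Level of each of the 6 genes on the 20 arrays, as log2 relative to the array's 75th percentile, in ENSW (blue) and base medium (orange). Shapes mark the lines, open symbols are arrays where the probe was not well above background, and bars give the mean and SD of 3 arrays. All selected arrays lie above all EV arrays in the same medium for every gene, and Eml1 and Celf2 lie higher in BRAF than in EV organoids too.

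Tesc and Celf2 were well above background on all 18 EV, BRAF and selected arrays, which makes them the best measured of the 6. The Tesc probe (chromosome 5, 118511820 to 118511879, mm9) gave -1.54, -3.13 and -1.86 in EV lines 1 to 3 in ENSW medium and -1.24, -3.01 and -2.54 in base medium. BRAF lines gave -0.44, -1.35 and 2.24 in ENSW medium and -1.77, -2.63 and 0.76 in base medium. Selected lines gave 4.19, 3.36 and 5.00 in ENSW medium and 3.84, 3.77 and 5.11 in base medium. Tesc was thus highest in selected lines, with no overlap with the other types, while BRAF line 3 stood above BRAF lines 1 and 2 in both media. Selected organoids exceeded EV organoids by 6.36 ± 0.95 (SE; 95% interval 4.33 to 8.39; 82.1-fold) in ENSW medium and by 6.50 ± 0.95 (4.47 to 8.54; 90.7-fold) in base medium. BRAF organoids exceeded EV organoids by 2.33 ± 0.95 in ENSW medium, with no overlap, and by 1.05 ± 0.95 in base medium, where the groups overlapped. Without BRAF line 3 these differences were 1.29 and 0.060, and without BRAF line 2 they were 3.08 and 1.76. Selected organoids exceeded BRAF organoids by 4.03 ± 0.95 (16.3-fold) and 5.46 ± 0.95 (43.9-fold), and by 5.07 and 6.44 without BRAF line 3 or 3.28 and 4.75 without BRAF line 2. With selected and BRAF lines of the same number as a block, the SE of both differences was 0.55. Wild-type organoids gave -2.29 and -1.10.

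Celf2, the RNA-binding gene, differed from the other members in that BRAF and selected organoids lay close together. Its brightest probe (chromosome 2, 6465900 to 6465959, mm9, minus strand) gave -3.67, -1.87 and -2.71 in EV lines 1 to 3 in ENSW medium and -3.11, -2.06 and -3.04 in base medium. BRAF lines gave 0.065, 1.15 and 1.20 in ENSW medium and -0.73, 0.78 and 0.63 in base medium. Selected lines gave 1.27, 0.95 and 1.31 in ENSW medium and 1.24, 0.80 and 1.32 in base medium. BRAF lines 2 and 3 reached the range of the selected lines in ENSW medium, and BRAF line 1 was the lowest BRAF line in both media. BRAF organoids exceeded EV organoids by 3.55 ± 0.48 (95% interval 2.52 to 4.59; 11.7-fold) in ENSW medium and by 2.96 ± 0.48 (1.92 to 4.0; 7.79-fold) in base medium. Selected organoids exceeded EV organoids by 3.93 ± 0.48 (15.2-fold) and 3.85 ± 0.48 (14.5-fold). Selected and BRAF organoids differed by 0.37 ± 0.48 (-0.67 to 1.41) in ENSW medium, where they overlapped, and by 0.89 ± 0.48 (-0.14 to 1.93) in base medium, where they did not. Without BRAF line 1 those differences were 0.0025 and 0.42. Wild-type organoids gave -2.97 and -2.61, within or near the EV range.

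Eml1, the microtubule-binding gene, was higher in BRAF than in EV organoids and higher again in selected organoids on its brightest probe. The probe (chromosome 12, 109777688 to 109777747, mm9) was not well above background on any of the 6 EV arrays, which read -6.37, -8.23 and -7.93 in ENSW medium and -5.59, -7.84 and -6.18 in base medium. BRAF lines lay close together at -2.98, -2.89 and -3.08 in ENSW medium and at -2.56, -3.63 and -3.66 in base medium. Selected line 1 read 3.44 and 3.70, selected line 2 read 0.17 and 0.10, and selected line 3 read 0.078 and -0.48, in ENSW and base medium. The 3 types did not overlap in either medium, and selected line 1 stood above the other selected lines in both. With means of 1.23 ± 1.91 (SD, n = 3) against -7.51 ± 1.00 in ENSW medium, selected organoids were at least 132-fold above EV organoids. In base medium, with 1.11 ± 2.27 against -6.54 ± 1.16, they were at least 93.0-fold above. BRAF organoids were at least 7.10-fold above EV organoids in ENSW medium and at least 4.45-fold in base medium. Selected organoids exceeded BRAF organoids by 4.21 ± 1.05 (18.5-fold) and 4.39 ± 1.05 (20.9-fold), and by 3.11 and 3.09 without selected line 1. The measured selected minus EV differences of 8.74 and 7.64 were 7.64 and 6.35 without that line. Wild-type organoids gave -7.41 and -5.72, not well above background.

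Pcyt1b, which serves phosphatidylcholine synthesis, separated the selected organoids from the rest. Its probe (chromosome X, 90994629 to 90994688, mm9) was not well above background on any EV array and on 1 of 3 BRAF arrays in each medium. EV lines 1 to 3 read -6.00, -7.02 and -7.19 in ENSW medium and -6.86, -6.00 and -5.93 in base medium, and BRAF lines read -6.05, -5.65 and -5.53 and then -5.51, -4.92 and -5.88. Selected lines read -3.61, -3.02 and -3.19 in ENSW medium and -3.42, -2.47 and -3.02 in base medium. All selected arrays lay above all others, whereas EV and BRAF lines overlapped in ENSW medium and lay next to each other in base medium. Selected organoids were at least 5.81-fold above EV organoids in ENSW medium and at least 5.52-fold in base medium. No bound is given for BRAF against EV organoids, since only 1 of 3 BRAF arrays in each medium was well above background. Selected organoids exceeded BRAF organoids by 2.47 ± 0.36 in both media (5.55-fold and 5.53-fold). Wild-type organoids gave -6.54 and -5.51, not well above background.

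Adarb1, the RNA-editing gene, was also highest in selected organoids. The probe (chromosome 10, 76753479 to 76753538, mm9, minus strand) read -7.91, -4.74 and -5.05 in EV lines 1 to 3 in ENSW medium, well above background in lines 2 and 3, and -7.47, -6.56 and -6.25 in base medium, below that limit in all 3. BRAF organoids were likewise detected in lines 2 and 3 in ENSW medium alone, with -6.70, -4.96 and -4.40 in ENSW medium and -7.17, -6.46 and -5.84 in base medium. Selected lines read -3.23, -1.92 and -3.20 in ENSW medium and -3.38, -1.89 and -3.93 in base medium, with line 2 the highest in both. EV and BRAF lines overlapped in both media. Their difference was 0.54 ± 0.82 in ENSW medium, and -0.46 without EV line 1. None is given in base medium, where no array of either type was well above background. Selected organoids exceeded EV organoids by 3.12 ± 0.82 (8.68-fold) in ENSW medium and were at least 5.15-fold above them in base medium. The ENSW difference was 2.11 without EV line 1. Against BRAF organoids the difference was 2.57 ± 0.82 (5.95-fold) in ENSW medium and at least 5.46-fold in base medium. Wild-type organoids gave -6.82 and -7.69, not well above background.

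Aif1l, the actin-binding gene, was the dimmest of the 6 in terms of detection, with 4 of 18 arrays well above background. EV lines 1 to 3 read -7.28, -6.40 and -8.00 in ENSW medium and -7.49, -6.55 and -6.01 in base medium on its probe (chromosome 2, 31828806 to 31828865, mm9). BRAF lines read -6.49, -7.46 and -6.06 in ENSW medium and -7.50, -7.11 and -7.36 in base medium. Selected lines read -3.97, -4.70 and -4.47 in ENSW medium, all well above background, and -5.42, -5.10 and -5.56 in base medium, where line 2 alone was. Selected organoids did not overlap with EV or BRAF organoids in either medium. In ENSW medium they were at least 2.70-fold above EV organoids and at least 2.20-fold above BRAF organoids. No bound is given in base medium, where only 1 of 3 selected arrays was well above background. The wild-type array in ENSW medium was well above background at -5.04, higher than all EV lines in that medium, while the one in base medium read -7.62.

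**Figure D2:**
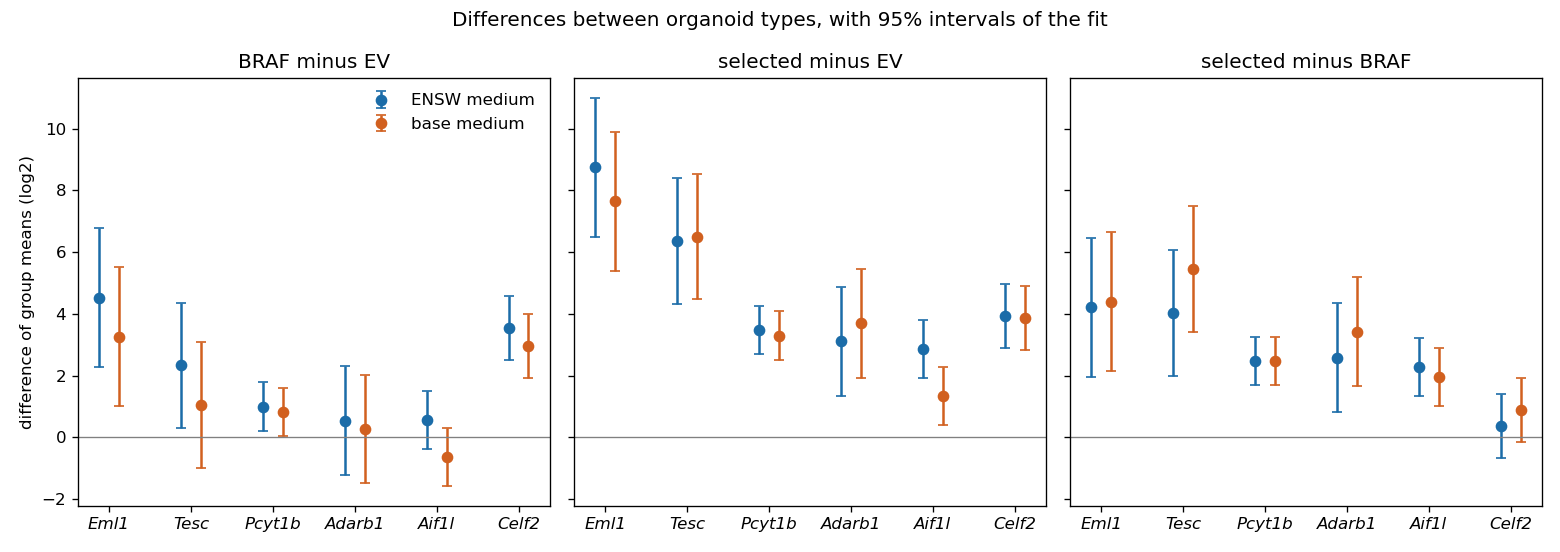
Difference of group means (log2) between organoid types for the 6 genes in ENSW (blue) and base medium (orange), with the 95% interval of the limma fit over 3 arrays per group. Celf2 is the gene with a large BRAF minus EV and a small selected minus BRAF difference (0.37 and 0.89), and Pcyt1b, Adarb1 and Aif1l show the reverse. Differences from groups that were not well above background are measured values here, and bounds stand in the text where one is given.

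Over the 6 genes, selected arrays lay above EV arrays without overlap for 6 of 6 in both media, where 25.9% of all genes did so in ENSW medium and 28.7% in base medium. BRAF arrays lay above EV arrays for 3 of 6 in ENSW medium (Eml1, Tesc and Celf2; 22.2% of all genes) and for 3 of 6 in base medium (Eml1, Pcyt1b and Celf2; 22.3%). Selected arrays lay above BRAF arrays for 5 of 6 in ENSW medium, all but Celf2 (8.36% of all genes), and for 6 of 6 in base medium (11.3%). The members were chosen on these contrasts, so the counts describe the choice. The comparisons with EV organoids share the EV arrays, and those with selected organoids share the selected arrays.

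EV organoids shared no slide with BRAF or selected organoids, so the slide cannot be told apart from the type in these comparisons. Slide 4 held selected line 3 beside BRAF line 1. There, in ENSW medium, the selected line read 5.00 against -0.44 for Tesc, 0.078 against -2.98 for Eml1 and 1.31 against 0.065 for Celf2. It read -3.19 against -6.05 for Pcyt1b, -3.20 against -6.70 for Adarb1 and -4.47 against -6.49 for Aif1l. For the last 3 genes the BRAF array was not well above background. With 1 line of each type, and genes picked for such differences, these values are a description alone. Both media of a culture were always on the same slide.

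Under other processing the differences of the dim genes were smaller, although selected organoids stayed above EV organoids. For selected minus EV in ENSW medium, normexp correction (offset 50) with quantile normalization gave 4.02 for Eml1, 0.63 for Pcyt1b, 0.62 for Adarb1 and 0.23 for Aif1l, and the deposited log2 values gave 5.34, 1.20, 1.21 and 0.58. Tesc gave 5.52 and 5.88 under those settings, and Celf2 gave 2.90 and 3.41. In base medium Aif1l gave 0.12 and 0.26. The BRAF minus EV difference of Eml1 in ENSW medium, 4.53 as measured, was 0.81 and 1.59. Selected minus BRAF in ENSW medium was 0.54 and 1.03 for Pcyt1b and 0.64 and 1.10 for Adarb1. The folds and bounds above therefore hold for the background-subtracted processed signal alone. Quantile normalization without normexp gave 8.50 for Eml1, 3.35 for Pcyt1b and 2.91 for Adarb1 for selected minus EV in ENSW medium. The values as measured were 8.74, 3.47 and 3.12. The part of the other processing steps was not tested.

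Celf2 had 3 probes and Eml1 had 2, and the Eml1 probes disagreed. The 3 Celf2 probes gave BRAF minus EV differences of 3.55, 3.39 and 3.16 in ENSW medium and 2.96, 3.48 and 2.69 in base medium. The second Eml1 probe (chromosome 12, 109776503 to 109776562, mm9) lies upstream of the first and was well above background on all 18 arrays. On it selected organoids exceeded EV organoids by 2.93 in ENSW medium and 2.69 in base medium, but BRAF organoids exceeded EV organoids by only 0.36 and 0.34. The step from EV to BRAF organoids thus rested on 1 of 2 Eml1 probes, while the step to selected organoids was seen on both.

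**Figure D3:**
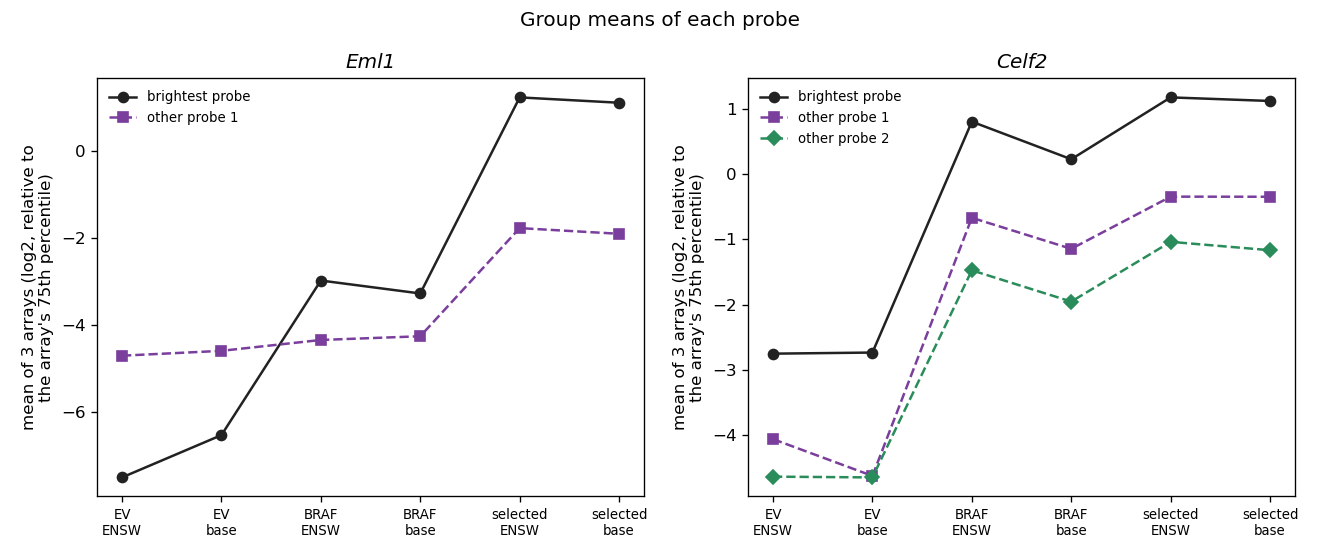
Mean level of 3 arrays (log2 relative to the array's 75th percentile) in each group for the 2 probes of Eml1 and the 3 probes of Celf2, with the brightest probe as a solid line. The Celf2 probes run in parallel, whereas the second Eml1 probe stays near its EV level in BRAF organoids (differences of 0.36 and 0.34) and is higher in selected organoids.

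The response to the medium was tested, since the rule compared organoid types and named no medium. None of the 6 genes passed the test in any organoid type, but not all could be read. In EV organoids the probes used for Tesc and Celf2 were detected on all arrays and that for Adarb1 on 2 of 6. Those for Eml1, Pcyt1b and Aif1l were detected on 0 of 6, so these 3 compare background readings. In BRAF organoids Tesc, Celf2 and Eml1 were detected throughout, Pcyt1b and Adarb1 on 2 of 6 arrays and Aif1l on 0 of 6. The second Eml1 probe was detected on all 18 arrays. It changed by 0.11 in EV, 0.086 in BRAF and -0.13 in selected organoids, and was not tested by itself. In EV organoids 42.2% of all genes changed between base and ENSW medium (limma, Benjamini-Hochberg adjusted p under 0.05), 9048 genes in all and 5145 without EV line 3. In BRAF organoids 1.65% of all genes changed, and in selected organoids 0.00467% did, with 0 of the 6 in each type. The BRAF share is unstable. Its 354 genes became 4089 with the culture as a block, 0 without BRAF line 2 and 1706 without the base array of BRAF line 1. At an unadjusted p under 0.05 there were 0, 0 and 1 of the 6. No response was detected at the precision of this fit, and the intervals were wide. The fit does not pair the 2 media of a culture, so the spread between lines enters the intervals. Both media of a culture deviated together (median r = 0.662). With the culture as a block 0 of the 6 genes were called in each type too. The 95% interval of the EV response reached from -2.12 to 1.95 for Tesc and from -1.02 to 1.05 for Celf2. Over all genes the median EV response was 0.19, and it was 0.088 with quantile normalization and 0.029 with normexp.

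Aif1l came closest to a response. In selected organoids it was lower in base than in ENSW medium in 3 of 3 lines, with differences of -1.45, -0.40 and -1.09, and the groups did not overlap, as for 2.3% of all genes in that direction. The difference of -0.98 ± 0.44 (SE, 95% interval -1.92 to -0.039) had an adjusted p of 1 in limma. In EV organoids it was 0.54 ± 0.44 (adjusted p = 0.35 in limma), lower in lines 1 and 2 and higher by 1.98 in line 3. The test of whether the response differed between selected and EV organoids gave -1.52 ± 0.62 (adjusted p = 0.0907 in limma), in a test that 24.2% of all genes passed (5194, and 9255 with the culture as a block or 2942 without EV line 3). With the culture as a block, which pairs both media of a culture, the adjusted p was 0.034, and it was 0.0353 without EV line 1 in base medium and 0.0359 without EV line 2 in ENSW medium. All EV arrays and 2 of the selected arrays in base medium were not well above background for this gene, so the EV side of this test is a background reading. The Aif1l probe passed the filter only through 3 selected arrays in ENSW medium and 1 in base medium. Its higher level in ENSW medium is thus what let it pass, and these comparisons do not stand as support for a response.

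Tesc was lower in base than in ENSW medium in all 3 BRAF cultures, with differences of -1.34, -1.29 and -1.48. The mean of -1.37 ± 0.95 (SE) had an adjusted p of 0.468 in limma, or 0.0878 with the culture as a block. Celf2 fell short in the same way, with -0.79, -0.36 and -0.57 in the 3 BRAF cultures and an adjusted p of 0.564, or 0.172 with the block. In selected cultures both genes stayed within 0.41 of their ENSW level in every line. The tests of BRAF against EV responses, passed by 3.35% of all genes, called 0 of the 6, with 0 at an unadjusted p under 0.05. That share stood for 718 genes, which became 4275 with the culture as a block, 20 without BRAF line 1 and 1890 without the base array of EV line 2.

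**Figure D4:**
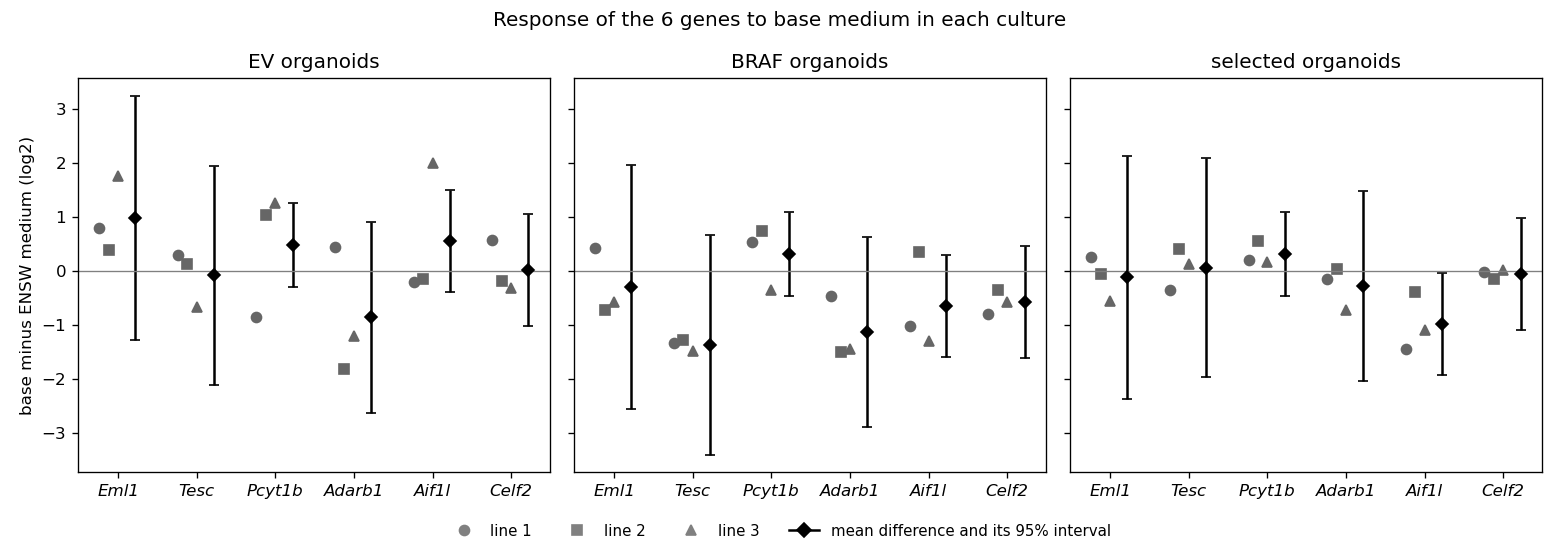
Base minus ENSW medium (log2) for the 6 genes in each EV, BRAF and selected culture (grey symbols by line), with the mean difference and its 95% interval (black). The intervals are from the fit without a block, which does not pair the media of a culture. The intervals cross 0 except for Aif1l in selected organoids (-1.92 to -0.039), and Tesc lies below 0 in all 3 BRAF cultures (-1.34, -1.29 and -1.48).

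The relatives and pathway partners of each gene were set beside it, with values as selected minus EV differences ± SE of the fit (3 arrays per group) and limma's adjusted p. Of the EML family, 3 of 5 relatives were measured, and in base medium 1 was higher in selected than in EV organoids. That was Eml2, also a microtubule-binding gene, at 1.15 ± 0.32 (adjusted p = 0.00875 in limma). Eml3 (0.48 ± 0.29) and Eml4 (0.49 ± 0.27) had adjusted p of 0.193 and 0.144. In ENSW medium 0 of 3 were called. Eml5 and Eml6 were too dim to be measured. These and all later shares of relatives can be read against all genes. Between selected and EV organoids 25% of genes were higher and 23.2% lower in base medium, and 8.68% and 5.12% in ENSW medium. A difference in base medium alone can also come from a change in EV organoids. There 42.2% of all genes changed between the media, beside 0.00467% in selected organoids.

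The relatives and partners of Tesc were mostly lower in selected than in EV organoids when both were kept in base medium. Of 10 measured relatives and sodium-proton exchanger genes, 8 were lower and 0 higher than in EV organoids, with a median of -2.57 beside 0.020 over all genes. In EV organoids 6 of the 10 were higher in base than in ENSW medium (median change 1.44). In selected organoids 0 of the 10 were called between the media (median change -0.018). Chp1, a calcineurin-like cofactor of the exchangers, was lower, with -2.75 ± 0.30 (adjusted p = 8e-06 in limma). Chp2, its relative in intestinal epithelium, was not well above background in selected organoids and at least 30.8-fold lower than in EV organoids (adjusted p = 7.14e-05). Slc9a3, the exchanger of the brush border, differed by -8.41 ± 1.82 (adjusted p = 0.00157), its scaffold gene Slc9a3r1 by -2.76 ± 0.44 (adjusted p = 0.000146) and the Golgi exchanger Slc9a7 by -2.39 ± 0.37 (adjusted p = 0.000113). In selected organoids Slc9a3 and Slc9a7 were well above background on 1 of 3 arrays in base medium. In ENSW medium 1 of the 10 was lower and 0 higher. With normexp or the authors' deposited values the base-medium count was 8 lower and 1 higher. Surface colonocyte markers moved with this group. Of 9 measured, 8 were lower in base medium and 6 in ENSW medium, with medians of -9.63 and -4.61, and 1 of the 9 was higher in ENSW medium. From ENSW to base medium 8 of these markers were higher in EV organoids (median change 4.07) and 0 were called in selected organoids (0.019). Their part in the result was not tested, and in such bulk RNA fewer cells of a type and less RNA per cell cannot be told apart.

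The genes around Pcyt1b split in both directions. Of 18 measured genes of phosphatidylcholine and phosphatidylethanolamine synthesis, in base medium 4 were higher and 7 lower in selected than in EV organoids, and 3 and 1 in ENSW medium. Pcyt1a, the alpha form of the same enzyme, was lower, with -1.87 ± 0.31 (adjusted p = 0.000177) in base medium and not called in ENSW medium (-0.80 ± 0.31, adjusted p = 0.0973). The choline kinase gene Chkb was lower, with -2.15 ± 0.23 (adjusted p = 6.19e-06), as was the phosphatidate phosphatase gene Lpin3, with -1.89 ± 0.26 (adjusted p = 4.4e-05). The choline transporter genes of the SLC44 family diverged. Slc44a1 was lower, with -2.09 ± 0.15 in base medium (adjusted p = 3.63e-07) and -1.36 ± 0.15 in ENSW medium (adjusted p = 0.000108). Slc44a2 was higher, with 1.95 ± 0.33 in base medium (adjusted p = 0.000256) and 1.69 ± 0.33 in ENSW medium (adjusted p = 0.00566). Chpt1, the choline phosphotransferase that follows Pcyt1b in the pathway, was likewise higher, with 1.66 ± 0.65 in base medium (adjusted p = 0.0498) and 2.15 ± 0.65 in ENSW medium (adjusted p = 0.0436). The Chpt1 calls were lost in 25 and 23 of 35 other settings, for base and ENSW medium, with adjusted p of up to 0.242 and 0.153 without EV line 2. Slc44a2 and Chpt1 are named after their values were seen.

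Adar, the widely expressed editing enzyme related to Adarb1, was not called. It gave -0.68 ± 0.37 in base medium (adjusted p = 0.142) and -0.028 ± 0.37 in ENSW medium (adjusted p = 0.972). Of 8 measured relatives and regulators, in base medium 4 were higher and 1 lower in selected than in EV organoids, and 0 and 1 in ENSW medium. Wwp2, a ubiquitin ligase gene that acts on ADAR2 protein towards its loss, was lower, with -2.00 ± 0.19 in base medium (adjusted p = 2.98e-06) and -0.68 ± 0.19 in ENSW medium (adjusted p = 0.0323). The latter call was lost in 14 of 35 other settings, with an adjusted p of up to 0.123 without EV line 1. Adat2, a tRNA deaminase gene, was higher by 2.46 ± 0.33 in base medium (adjusted p = 3.17e-05) and not called in ENSW medium (-0.32, adjusted p = 0.546). Cycling markers moved with these base-medium calls, with 8 of 8 higher in selected than in EV organoids (base) and 1 of 8 (ENSW), and their part was not tested. In EV organoids 8 of 8 cycling markers were lower in base than in ENSW medium, and in selected organoids 0 were called. Adarb2, the brain form, was too dim to be measured.

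Aif1, the macrophage relative of Aif1l, was not called in either medium. In ENSW medium it gave -1.06 ± 0.91 (adjusted p = 0.468). In base medium it was not well above background in selected organoids and at least 1.53-fold lower than in EV organoids (adjusted p = 0.174). Of the 9 measured relatives and actin-bundling genes, in base medium 1 was higher and 3 lower in selected than in EV organoids, and 0 and 0 in ENSW medium. Villin (Vil1) and plastin 1 (Pls1), which bundle actin in microvilli, were lower, with -2.23 ± 0.40 (adjusted p = 0.000367) and -1.84 ± 0.39 (adjusted p = 0.00141). Actn1, an actin cross-linker of adhesions, was higher by 1.66 ± 0.43 (adjusted p = 0.0053).

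The CELF family was mixed. Celf1, the closest relative of Celf2, gave -0.18 ± 0.17 in ENSW medium and -0.026 ± 0.17 in base medium (adjusted p = 0.508 and 0.9). Celf4 was higher by 1.60 ± 0.43 in ENSW medium (adjusted p = 0.0255) and 1.29 ± 0.43 in base medium (adjusted p = 0.0223), calls that were lost in 10 and 9 of 35 other settings, with adjusted p of up to 0.103 and 0.115 without selected line 2. Celf3 and Celf6 were lower in base medium, with -3.27 ± 0.37 (adjusted p = 9.43e-06) and -1.15 ± 0.30 (adjusted p = 0.00542), and Celf5 gave -1.20 ± 0.50 (adjusted p = 0.0614). Enteroendocrine and tuft cell markers moved with them, with 5 of 10 lower in base medium (median -2.76) and 4 of 10 in ENSW medium. Their summed level in base medium, where 1 is the array's 75th percentile, was 3.94 to 63.1 in EV and 0.331 to 0.347 in selected organoids, and their part was not tested. Of 12 measured CELF, MBNL and other splicing regulators, 3 were higher and 4 lower in base medium, and 1 and 1 in ENSW medium. Esrp1, a splicing regulator of epithelial cells, was lower, with -1.04 ± 0.18 (adjusted p = 0.000242) in base medium. The muscleblind genes Mbnl2 and Mbnl3 gave -0.78 ± 0.19 (adjusted p = 0.00322) and 1.61 ± 0.45 (adjusted p = 0.00892) in base medium. The Mbnl3 call was lost without EV line 3 (adjusted p = 0.0517).

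**Figure D5:**
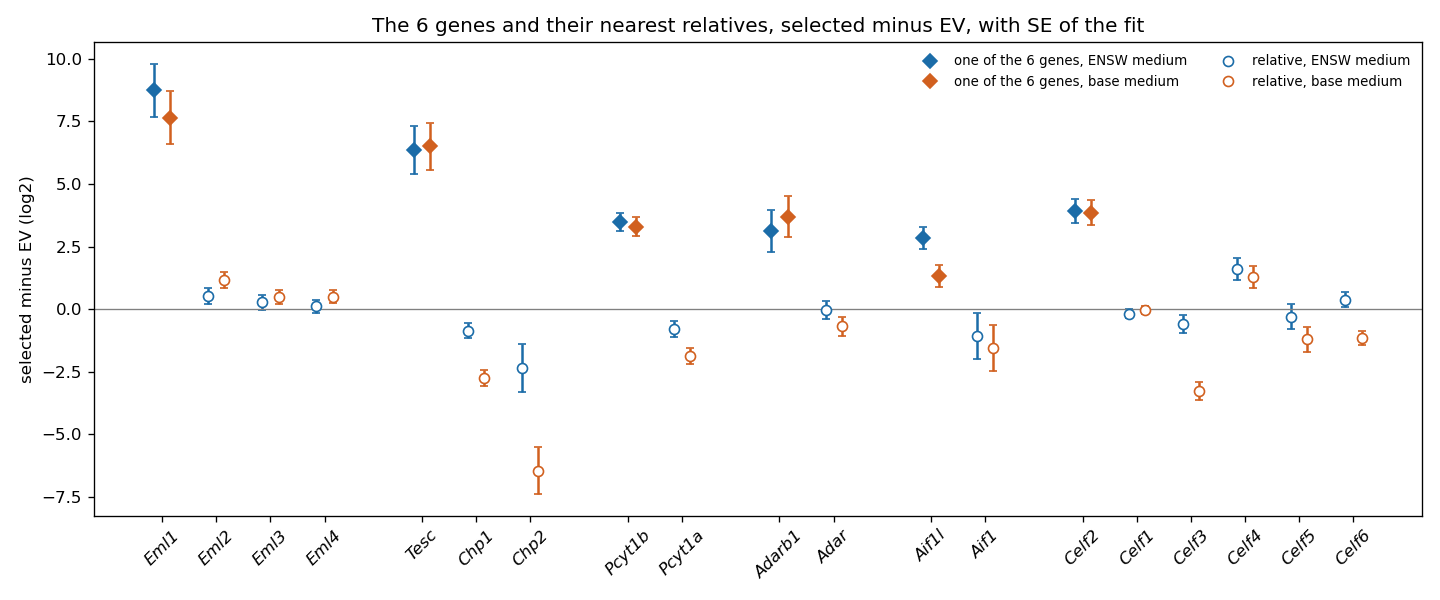
Selected minus EV difference (log2, with the SE of the fit) for the 6 genes (filled) and their nearest measured relatives (open) in ENSW (blue) and base medium (orange). Chp1, Chp2, Pcyt1a and Celf3 lie below 0 in base medium while Tesc, Pcyt1b and Celf2 lie above it in both media. The 6 genes were picked for this difference.

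Across the 18 arrays the 6 genes tracked one another, with Pearson r between 0.546 (Aif1l and Celf2) and 0.861 (Eml1 and Pcyt1b) over the 15 pairs. All points come from the same 6 groups, so these values repeat the shared group pattern. Among 16084 other genes with a symbol, those most like Tesc were Nfe2l3 (r = 0.966), Gprc5b (0.957) and Pcdh7 (0.955). Pcdh7 was also among the first 3 for Eml1 (0.943, after Pakap at 0.949) and Pcyt1b (0.92, after Tmx3 at 0.945 and Itgal at 0.931), and Irs1 was the third for Eml1 (0.937). Celf2 was most like Spns2 (0.975), Slc44a2 (0.949) and Col18a1 (0.948). For Adarb1 these were Bace1 (0.896), Cited4 (0.894) and Greb1l (0.892), and for Aif1l Fbxo2 (0.897), D630045J12Rik (0.879) and Arl13b (0.873). The number of genes above r = 0.9 was 60 for Celf2, 20 for Tesc, 9 each for Eml1 and Pcyt1b, and 0 each for Adarb1 and Aif1l. These r also rest on the group means. For deviations from the group means, Pcdh7 gave r = 0.685 with Tesc, 0.457 with Eml1 and -0.058 with Pcyt1b. The other like genes gave from 0.379 (D630045J12Rik with Aif1l) to 0.845 (Pakap with Eml1).

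Between 59.6% and 65.2% of the spots on an array were detected well above background, and arrays of 1 group correlated at r = 0.944 to 0.988 across genes. Epithelial markers were well measured, with 8 of 8 kept, and 6 of 8 (base) and 2 of 8 (ENSW) were lower in selected than in EV organoids. Goblet cell markers were lower for 5 of 7 in both media. Aif1 is a macrophage gene and several CELF genes are known from neurons, so markers of other cells were read too. Of 9 leukocyte markers 7 were measured, with Lyz2 among those too dim, and 1 was higher (ENSW) and 1 lower (base) in selected than in EV organoids. Their summed level, where 1 is the array's 75th percentile, was 18 to 25 in selected and 19.3 to 62.2 in EV organoids. Neuron and glia markers (6 of 9 measured, with Rbfox3 and S100b among those too dim) summed to 11.6 to 17 in selected and 12.9 to 43.3 in EV organoids. Of the 6, 1 was higher and 0 lower in selected than in EV organoids in ENSW medium, and 1 higher and 2 lower in base medium. Fibroblast, muscle and endothelial markers (5 of 10 measured, with Col1a1, Col3a1, Pdgfra, Des and Cdh5 too dim) summed to 4.11 to 4.91 in selected and 3.09 to 3.71 in EV organoids, and 1 was higher and 1 lower in each medium. The part of other cells in the levels of the 6 genes was not tested.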

How the data were processed

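Total RNA of 20 organoid samples was labelled with Cy3 and hybridised to 1-colour Agilent arrays. The deposited intensity values were made by the authors with Feature Extraction 10.7.3.1, per the file headers, and are background-subtracted processed signals. The deposited log2 values of the authors rank like the median signal, with column medians of 5.66 to 5.68. Their normalization is not given in the sources used here, and limma is named in the submitters' processing notes. Probe positions are in mm9, as the files give them.

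Control spots (1377 per array) and 2747 spot values marked as outliers were left out, and 0 values were saturated. The log2 intensity minus the array's 75th percentile was averaged over spots of a probe. Kept were the 26827 probes that 3 or more of the 18 arrays detected well above background, with the brightest probe per gene, giving 21424 genes, 16085 of them with a symbol. RefSeq accessions named 26581 probes, symbols 2597 and older symbols 492, and 9759 kept the name in the file. The 6 genes were found by the gene name in the files. Differences between 6 group means were fitted with limma 3.58.1 (R 4.3.3; lmFit and eBayes, 12 residual degrees of freedom, two-sided, Benjamini-Hochberg over all genes, threshold 0.05). Its steps were tested on simulated data. Wild-type arrays were not fitted. The number of arrays limits the precision.

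The members and the gene lists were chosen with earlier results of these data known. Named relatives are the direct paralogs of a member and up to 3 further genes per list with the smallest adjusted p between organoid types. Some genes of the lists are not reported here. Genes of like pattern are the 3 with the highest r. Both media of a culture deviated together from their group means (r = 0.422 to 0.874, median 0.662, n = 9 cultures), so the type and line number in the titles were taken to mark a culture. Selected and BRAF lines of the same number also deviated together (r = 0.101 to 0.374, median 0.18, n = 12) and were taken as pairs. EV lines with either did so less (r = -0.081 to 0.211, median 0.047, n = 24) and were not taken as pairs. Lines of different number had a median r of -0.071. Some EV and BRAF lines of the same number reached the range of the accepted pairs, so a pairing of EV lines remains possible. The fit used throughout has no block, and blocked values are named as such. Alternatives were normexp with quantile normalization, quantile normalization alone, no filter, the mean of all probes, the deposited log2 values, culture, slide or line number as a block (for selected and BRAF lines alone, added after seeing the data), and leaving out each array or culture.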

Additional observations from a re-analysis of the deposited data

Results flagged for a closer look

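The response to base medium differed between selected and EV organoids, by limma's test of the difference itself, for 12 of the named relatives and partners, and for none of the 6 genes. Of the 13 measured paralogs 4 were called, in a test that called 24.2% of all genes. Of the other 14 named genes 8 were, but those were named for their small adjusted p between organoid types, on arrays that this test shares, so their number describes the choice. The values are differences between selected and EV organoids in the log2 change from ENSW to base medium. Between these media 42.2% of all genes were called in EV organoids and 0.00467% in selected organoids. In selected organoids 0 of the measured genes of each list below were called. A negative or positive value therefore does not say that a gene fell or rose in selected organoids.

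Among the partners of Tesc, the exchanger cofactor Chp1 gave -1.89 (adjusted p = 0.00604 in limma), called in all 35 other settings. Chp2 gave -4.10 (adjusted p = 0.0383, not called in 18 of 35), Slc9a7 gave -1.65 (0.034, 19 of 35) and Slc9a3r1 gave -2.00 (0.0316, 11 of 35). In phosphatidylcholine synthesis Chkb gave -1.72 (adjusted p = 0.00212), called throughout, Lpin3 gave -1.33 (0.0179, not called in 3 of 35) and Slc44a1 gave -0.73 (0.0217, 6 of 35). Among deaminases and ADAR2 regulators Wwp2 gave -1.32 (adjusted p = 0.00331) and Adat2 gave 2.78 (0.00112), both called in every other setting. Adat2 also differed between BRAF and EV organoids, by 1.79 (adjusted p = 0.0496), a call lost in 29 of 35 settings. Among splicing regulators Celf3 gave -2.67 (adjusted p = 0.00262), called throughout, Celf6 gave -1.53 (0.0171, not called in 5 of 35) and Mbnl3 gave 1.86 (0.048, 25 of 35). The highest adjusted p among the other settings was 0.108 for Chp2 (without the base array of EV line 3), 0.131 for Slc9a7, 0.105 for Slc9a3r1 and 0.0888 for Slc44a1 (all without EV line 3), 0.0604 for Lpin3 and 0.134 for Mbnl3 (both without selected line 3), and 0.0817 for Celf6 (mean of its probes). For Adat2 in BRAF organoids it was 0.215, without BRAF line 1. In the selected against EV test 24.2% of all genes were called.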

How the results depend on the processing

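Of 1050 medium values of the 6 genes under other settings, 0 changed sign with a call, 0 lost a call and 4 passed the threshold there alone (Aif1l in 3, Pcyt1b in 1, both not detected in EV organoids). Of 1272 values between organoid types, 7 had the opposite sign, all for Adarb1 in BRAF against EV organoids. The count of genes with a medium response in BRAF organoids was 354, and 658 with normexp, 213 with no filter, 615 with line number as a block, 4089 with culture and 716 with slide as a block, and 566 on the authors' deposited values. For BRAF against EV responses it was 718, and 1127, 314, 1350, 4275, 1334 and 1129 under the same settings. With culture as a block, selected organoids had 3 genes in place of 1, and the selected against EV test had 9255 in place of 5194, with 1 of the 6 genes (Aif1l) in place of 0. Leaving out arrays or cultures gave 5145 to 9392 genes in EV organoids, 0 (without BRAF line 2) to 1706 (without the base array of BRAF line 1) in BRAF organoids, 1 to 2 in selected organoids, 20 (without BRAF line 1) to 1890 for BRAF against EV and 2942 (without EV line 3) to 5707 for selected against EV responses. The number of the 6 genes called was 0 to 1 in EV organoids and in the selected against EV test. With line number as a block over all types (replicate block) 0 of the 6 genes were called. With selected and BRAF lines alone as a block, the selected minus BRAF differences did not move, and their SE were 0.33 to 0.80 in place of 0.36 to 1.05. The causes were not tested. Signal near background limits Aif1l, Pcyt1b, Adarb1 and the Eml1 probe used in EV organoids.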
